A study of Mus musculus with 2 samples.

Results

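The 10 genes described here are the receptors for corticosteroids, an enzyme that regenerates the hormone inside cells, and genes known as targets of the glucocorticoid receptor. They are Nr3c1, Nr3c2, Hsd11b1, Fkbp5, Tsc22d3, Zbtb16, Sgk1, Plin4, Pdk4 and Errfi1, matched by symbol among 55536 annotated genes. RNA came from the hippocampus of female B6CASTF1/J mice, hybrids of C57BL/6J and CAST/EiJ, aged 18 to 20 months. The labels form 1 group of 2 libraries, biological replicates 1 and 2, each made from 300 ng of total RNA after ribosomal RNA reduction, with ERCC spike-ins added. The libraries have different biosample labels but a shared donor label, so it is not known whether 2 animals were sampled, and their spread may be technical. No treatment, genotype contrast or hormone measurement is given, so no test was made, and each difference below is between those 2 libraries. Reads were assigned against mm10, the C57BL/6J assembly, and the loss of CAST/EiJ reads was not measured.

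Corticosterone, the main glucocorticoid of mice, acts in the hippocampus through a pair of nuclear receptors. The mineralocorticoid receptor, encoded by Nr3c2, binds it with high affinity, and the glucocorticoid receptor, encoded by Nr3c1, binds it with lower affinity and is occupied mainly at the daily peak and during stress. Both are held by chaperones until hormone binds, then move to the nucleus and act at response elements, of which the classic form is an inverted repeat of the hexamer AGAACA. Fkbp5 encodes a co-chaperone that lowers the affinity of the glucocorticoid receptor and is itself a target gene, which closes a feedback loop. The hippocampus is known for high levels of both receptors.

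Sgk1, which encodes a serum- and glucocorticoid-regulated kinase, is shown first because its transcripts differ in their starts and in the first part of the protein. The 250 bases before 3 of its annotated starts are given 5′ to 3′ on the plus strand, from RefSeq on GRCm38.p6, with each match to the hexamer AGAACA, on either strand, in capitals. They lie at chr10:21881934-21882183, chr10:21993640-21993889 and chr10:21994416-21994665.
Before Sgk1-204: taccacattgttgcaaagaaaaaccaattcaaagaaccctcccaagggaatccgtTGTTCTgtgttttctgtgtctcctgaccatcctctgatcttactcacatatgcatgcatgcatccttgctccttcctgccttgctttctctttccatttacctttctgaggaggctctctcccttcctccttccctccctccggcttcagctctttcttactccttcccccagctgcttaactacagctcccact
Before Sgk1-202: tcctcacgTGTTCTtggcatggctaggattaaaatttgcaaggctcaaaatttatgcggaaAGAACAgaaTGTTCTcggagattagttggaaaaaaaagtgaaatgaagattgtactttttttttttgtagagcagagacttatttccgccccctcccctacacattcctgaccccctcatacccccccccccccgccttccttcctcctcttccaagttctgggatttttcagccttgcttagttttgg
Before Sgk1-201: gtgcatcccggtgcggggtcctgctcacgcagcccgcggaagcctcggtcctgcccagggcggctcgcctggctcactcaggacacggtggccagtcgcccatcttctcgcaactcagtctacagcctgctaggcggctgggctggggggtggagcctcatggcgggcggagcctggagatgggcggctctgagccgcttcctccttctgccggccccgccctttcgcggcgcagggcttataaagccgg
The stretch before Sgk1-202 holds the full inverted repeat, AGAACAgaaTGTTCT, at chr10:21993701-21993715, which begins 189 bases before the start.

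RefSeq windows of 300 bases, from 250 before to 50 after a start, were found for 8 of the 10 genes, all but Nr3c1 and Zbtb16, and numbered 16, of which 6 belong to Sgk1. The inverted repeat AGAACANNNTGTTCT, read on both strands, is present in 3 of 32851 such windows of the mouse genome (0.00913%), those of Sgk1, Acnat2 and Gm35041. Of the 16 windows, 1 holds it. The looser form GNACANNNTGTNC is present in 156 windows (0.475%), and in 1 of the 16, where it overlaps the inverted repeat. The hexamer AGAACA alone, which the inverted repeat contains, is present in 6233 windows (19.0%) and in 4 of the 16, of which 3 belong to Sgk1 and 1 to Tsc22d3. The inverted repeat of Sgk1 also lies upstream of the start of Sgk1-201, beyond the 250 bases printed for that form. A match is a description of the letters, and no factor binding was measured.

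Transcripts of Sgk1 also differ in where translation begins. The first 60 coding bases are given for the leading forms, from the GENCODE M21 transcripts, with the start codon in capitals.
Sgk1-204: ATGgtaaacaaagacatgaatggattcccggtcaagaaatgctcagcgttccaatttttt
Sgk1-202: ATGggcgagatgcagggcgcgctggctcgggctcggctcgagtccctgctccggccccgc
Sgk1-201: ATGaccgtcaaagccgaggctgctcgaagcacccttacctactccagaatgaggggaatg
The annotated proteins have 524, 445 and 431 residues. Sgk1-204 has 118 residues of its own before the end it shares with Sgk1-201, and Sgk1-202 has 39. The shared end is 1218 coding bases long, so reads from it cannot by themselves be given to 1 form.

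All 10 genes were detected, at 1 TPM or more in each library. TPM is the authors' abundance, corrected for effective length, which sums to 1000000 over a library. Mean levels in the deposited gene tables ran from 4.70 ± 3.01 TPM (SD, n = 2) for Plin4 to 55.7 ± 3.49 TPM for Nr3c2. In order of mean TPM the genes were Nr3c2, Zbtb16, Tsc22d3, Sgk1, Nr3c1, Fkbp5, Errfi1, Hsd11b1, Pdk4 and Plin4. The values of neighbours in that order overlapped between libraries for Nr3c2 and Zbtb16, Zbtb16 and Tsc22d3, Tsc22d3 and Sgk1, and Nr3c1 and Fkbp5, and these pairs are not ordered beyond their spread. Nr3c2 stood above 87.4% of the 14369 detected genes, Nr3c1 above 77.0% and Plin4 above 24.7%. A second deposited quantification, in the kallisto layout, gave TPM values a median of 1.66-fold higher for these genes (1.499 to 2.21) and 1.66-fold higher for all detected genes. There Sgk1 stood above Tsc22d3 and Hsd11b1 above Errfi1.

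**Figure D1:**
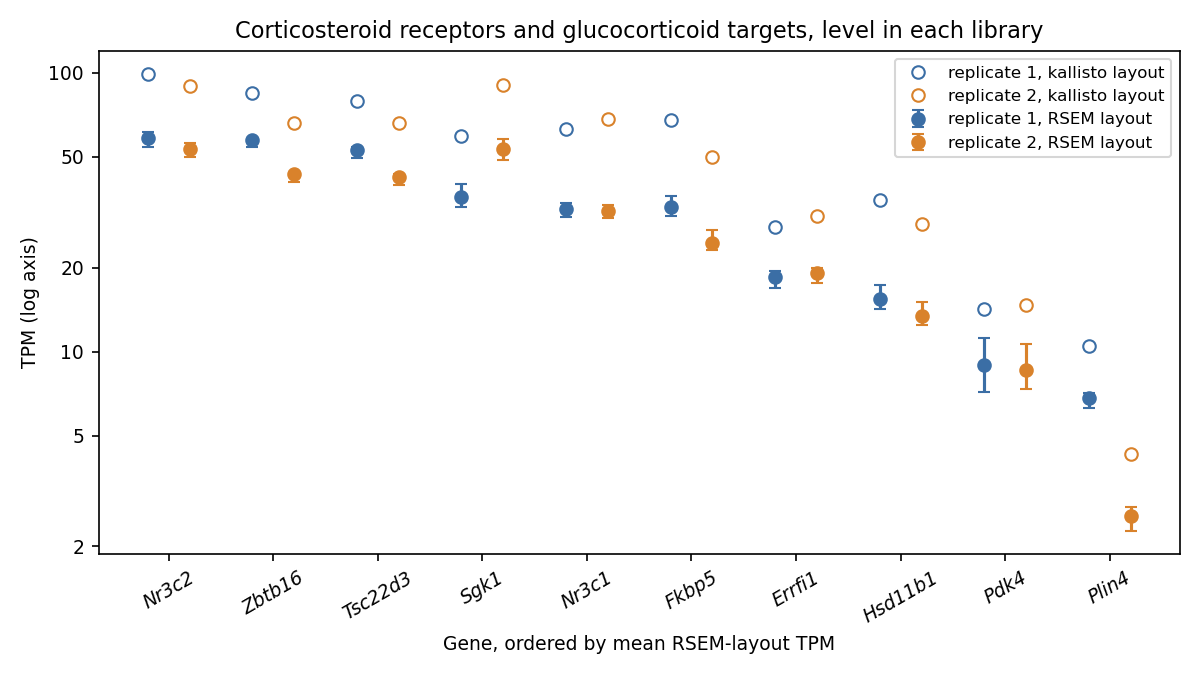
Level of each of the 10 genes (TPM, log axis) in replicate 1 (blue) and replicate 2 (orange), with the RSEM-layout value and the authors' credibility interval (filled points and bars) and the kallisto-layout value (open points). Plin4 stands lowest, at 6.83 and 2.57 TPM, and Sgk1 is the gene with the widest gap in the other direction, at 35.8 and 53.4 TPM.

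The receptor genes were present at unequal levels, with Nr3c2 RNA above Nr3c1 RNA in both libraries. Nr3c2, on the plus strand of chromosome 8 (76899442 to 77245012, mm10), was at 58.2 and 53.3 TPM in replicates 1 and 2. Nr3c1, on the minus strand of chromosome 18 (39410545 to 39519421), was at 32.4 and 32.1 TPM. The values of the genes did not overlap. Nr3c1 TPM over Nr3c2 TPM was 0.557 and 0.602, with a mean of 0.579 ± 0.0323 (SD, n = 2). Put the other way, Nr3c2 RNA was 1.73 ± 0.0962 times Nr3c1 RNA per length. The ratio lay under 1 in each measure: it was 0.612 in expected counts, 0.620 over protein-coding transcripts and 0.697 in the kallisto layout. In FPKM it was 0.579, which repeats the TPM ratio because these units differ by a constant within a library. The ratio was higher in replicate 2 than in replicate 1 in all 5 measures, FPKM included. In bulk tissue the ratio is over all cells, and fewer cells of a type cannot be told apart from less RNA per cell.

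**Figure D2:**
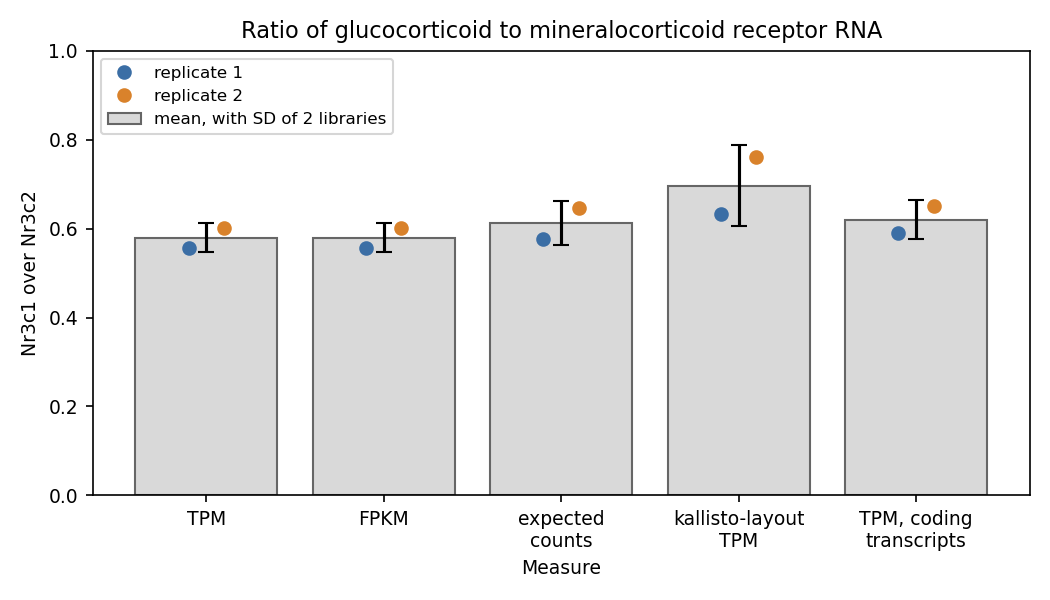
Nr3c1 over Nr3c2 in each library (points) with the mean and SD of both libraries (bars), for 5 measures on the horizontal axis. FPKM repeats the TPM ratio and is not a separate measure. Every point is under 1, from 0.557 in TPM of replicate 1 to 0.761 in kallisto-layout TPM of replicate 2.

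Both receptors were close in the 2 libraries. Nr3c1 had expected counts of 3700 and 4116, estimated read numbers that need not be whole and were rounded. After TMM scaling, which sets library sizes by the bulk of genes, Nr3c1 was 1.09-fold higher in replicate 2, with an exact 95% binomial interval of 1.04 to 1.14. Intervals of this kind cover counting error only, not variation between preparations or error in assigning reads. PCR copies were not separated from molecules, so the counting error may be larger than an interval shows. Nr3c2 had 6417 and 6363 counts and was 1.03-fold higher in replicate 1 (0.997 to 1.07). The authors' TPM credibility intervals, whose level is not stated, overlapped between libraries for each receptor gene.

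Nr3c1 RNA was divided among 9 annotated transcripts, all protein-coding. Nr3c1-203, which carries a complete coding sequence of 792 residues, took 61.0% and 55.6% of the gene's TPM in replicates 1 and 2. Nr3c1-208, with an incomplete coding sequence, took 20.2% and 15.8%. Nr3c1-204 was at 0 and 10.7%, and the kallisto layout gave it 20.1% and 36.4% and Nr3c1-203 26.6% and 12.4%. Nr3c1-202 took 9.60% and 8.79% of TPM, or 9.16% and 11.6% in the kallisto layout. Nr3c1-205, a short form, took 8.74% and 18.1% there, and 0 and 0.405% in the RSEM layout. The split of Nr3c1 among transcripts therefore depended on the quantification. Nr3c1-204 has 0 of its 6277 words of 31 bases to itself within the gene, and Nr3c1-203 has 108 of 6386.

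For Nr3c2 the leading transcript was Nr3c2-204, with 36.7% and 38.4% of TPM, followed by Nr3c2-203 with 27.7% and 28.1%. Both encode 980 residues. Nr3c2-201, which encodes 984 residues, took 15.0% and 12.6%, and the short Nr3c2-206 took 11.0% and 11.9%. In the kallisto layout Nr3c2-204 and Nr3c2-203 stood at 26.3% and 25.1% in replicate 1 and at 25.3% and 30.3% in replicate 2, so their order turned. The 1 transcript annotated as a target of nonsense-mediated decay took 4.79% and 4.73%. Exons of Nr3c2 share 247 of 6474 bases with Gm10649, a noncoding gene on the opposite strand at 90 and 111 counts, and whether counting used the strand is not given.

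Among the NR3 family of 9 steroid and estrogen-related receptors, the corticosteroid receptors held the highest levels. Esrra, an estrogen-related receptor, followed at 23.0 ± 1.48 TPM. The lowest was Esr2, an estrogen receptor, at 0.195 ± 0.120 TPM, with 9 and 22 counts. Of the 7 genes tested (mean count 50 or more), Esr1 alone, the other estrogen receptor, differed over 1.2-fold between libraries, beside 10.4% of all tested genes. Esr1 was at 1.82 and 1.37 TPM.

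Hsd11b1 encodes 11-beta-hydroxysteroid dehydrogenase type 1, which regenerates active corticosterone inside cells. Its RNA, from the minus strand of chromosome 1 (193221634 to 193264075), was at 15.4 and 13.4 TPM in replicates 1 and 2, with 514 and 493 counts. The libraries were close, at 1.07-fold higher in replicate 1 (0.942 to 1.21), and the credibility intervals overlapped. Hsd11b2, which encodes the opposing enzyme that inactivates the hormone, had 1 and 2 counts. Counts that low give no usable ratio, and the gene stood at a mean of 0.0300 TPM. H6pd, which supplies the cofactor for the regenerating enzyme, was at 3.86 ± 0.601 TPM.

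Other genes that set how much hormone or releasing peptide reaches a receptor were at low levels. Crhbp, the binding protein of corticotropin-releasing hormone, was at 9.89 ± 0.120 TPM, and Abcb1a, an efflux pump of the blood-brain barrier, at 6.29 ± 0.820 TPM. Serpina6, which encodes the corticosteroid-binding globulin of blood, had no count in either library. Of the 9 genes of this list that could be tested, 2 differed over 1.2-fold, beside 10.4% of all tested genes. Abcb1a had 676 and 898 counts, and Crh, the releasing hormone gene, had 61 and 41.

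Which Hsd11b1 transcript led depended on the quantification. Hsd11b1-205, with 292 residues, took 69.0% and 65.9% of TPM in the RSEM layout and was listed at 0 in both libraries in the kallisto layout. Hsd11b1-201, also of 292 residues, took 26.3% and 33.3%, and 26.5% and 42.5% in the kallisto layout. Hsd11b1-202 and Hsd11b1-203 were listed at 0 in the RSEM layout, while the kallisto layout gave them 43.1% and 33.1%, and 26.2% and 21.5%.

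The target genes did not differ between the libraries in 1 direction. The word apart is used here for a gene that averaged 50 counts or more and whose scaled counts differed over 1.2-fold. Of the 10 genes 4 were apart, beside 10.4% of 14307 tested genes. The 10 genes were chosen with earlier results of these data known. This share and those below therefore describe them and are no test of an excess. Fkbp5, Plin4 and Zbtb16 were higher in replicate 1, a direction that 4.75% of genes showed, and Sgk1 was higher in replicate 2, as were 5.62% of genes. Among 8460 genes with at least the mean count of Hsd11b1, the lowest of the 10 at 503.5, the share apart was 2.13%, and among 11291 genes that averaged 200 counts or more it was 4.54%. Of the 10 genes 4 were higher in replicate 2 by any amount, beside 50.1% of genes. The median log2 ratio of replicate 2 over replicate 1 was -0.07 for the 10 genes and 0.0004 for all tested genes, with a prior count of 2.

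The authors' credibility intervals gave a second reading of the same libraries. They did not overlap between libraries for Fkbp5, Tsc22d3, Plin4, Zbtb16 and Sgk1, 5 of the 10 genes, beside 8.0% of tested genes. At a threshold of 1.5-fold 1 of the 10 genes, Plin4, was apart, beside 1.64% of genes, and at 2-fold the same gene, beside 0.384%.

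**Figure D3:**
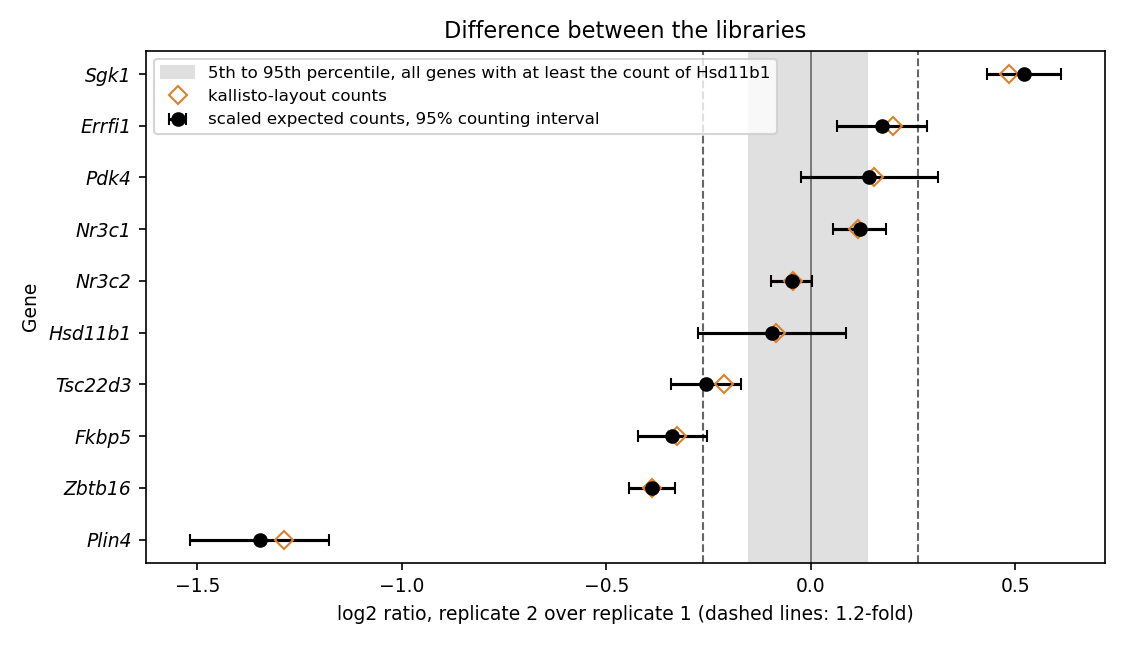
Log2 ratio of replicate 2 over replicate 1 for each gene from scaled expected counts with its 95% counting interval (black) and from kallisto-layout counts (open diamonds). The grey band holds the 5th to 95th percentile of 8460 genes with at least the count of Hsd11b1, from -0.15 to 0.14, and dashed lines mark 1.2-fold. Plin4 lies far to the left, Sgk1 to the right, and Nr3c1, Nr3c2 and Hsd11b1 inside the band, with Pdk4 and Errfi1 just beyond its right edge.

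Plin4, which encodes a lipid droplet coat protein, had the widest gap of the 10 genes. It had 986 and 397 counts, or 6.83 and 2.57 TPM in replicates 1 and 2. It was 2.54-fold higher in replicate 1 (2.26 to 2.87), and 2.44-fold in the kallisto layout. The gene lies on the minus strand of chromosome 17 (56100591 to 56109803). Exons of Hdgfl2, on the opposite strand, share 17 of its 5777 exonic bases, and Hdgfl2 had 1974 and 2049 counts. The 2 annotated transcripts of Plin4 are 5755 and 5756 bases long. The RSEM layout gave all of the gene to Plin4-202 and the kallisto layout gave 44.0% to it and 56.0% to Plin4-201. Within the gene Plin4-202 has 1 of its 4786 words of 31 bases to itself and Plin4-201 has none. Among the other perilipins, Plin3 was at 7.80 ± 1.43 TPM, Plin2 at 5.56 ± 1.52 TPM and Plin5 at 0.220 ± 0.0707 TPM. Plin1, the adipocyte perilipin, had 6 and 3 counts. Neither Plin2 nor Plin3, the tested ones, was apart.

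Fkbp5, on the minus strand of chromosome 17 (28399094 to 28517527), was at 33.1 and 24.6 TPM in replicates 1 and 2, with 2549 and 2064 counts. It was 1.26-fold higher in replicate 1 (1.19 to 1.34). Fkbp5-201, which encodes 456 residues, led throughout, with 83.9% and 85.8% of TPM, and 51.7% and 57.6% in the kallisto layout. Fkbp5-203, a noncoding form, took 14.9% and 9.48%, and 21.1% and 13.2%. Fkbp5-209, of the same 456 residues, was listed at 0 in the RSEM layout and took 11.2% and 10.4% in the kallisto layout.

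Tsc22d3 encodes GILZ, a leucine zipper protein that carries part of the anti-inflammatory action of glucocorticoids. It was at 52.9 and 42.2 TPM in replicates 1 and 2, with 2427 and 2082 counts, from the minus strand of chromosome X (140539528 to 140600659). Its gap, 1.19-fold higher in replicate 1 (1.13 to 1.27), lay just inside the 1.2-fold threshold, and Fkbp5 lay just outside it. With TPM or FPKM as deposited, Tsc22d3 passed the threshold. Tsc22d3-201, of 137 residues, led with 75.5% and 70.0% of TPM, and 80.9% and 82.7% in the kallisto layout. The noncoding Tsc22d3-202 took 15.9% and 21.7% in the RSEM layout and 0.343% or less in the kallisto layout. Of its family, Tsc22d1 was at 216 ± 1.05 TPM, Tsc22d4 at 69.9 ± 8.17 TPM and Tsc22d2 at 15.6 ± 1.29 TPM, and none of the 4 genes was apart.

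Zbtb16 encodes PLZF, a zinc finger repressor of transcription. It was at 57.4 and 43.2 TPM in replicates 1 and 2, with 5734 and 4485 counts, from the minus strand of chromosome 9 (48654297 to 48836222). It was 1.31-fold higher in replicate 1 (1.26 to 1.36). Its 2 transcripts encode the same 673 residues. Zbtb16-201 took 58.0% and 53.6% and Zbtb16-202 42.0% and 46.4%, and the kallisto layout gave 69.2% and 64.3% to Zbtb16-201.

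Sgk1 went the other way. It lies on the plus strand of chromosome 10 (21882184 to 21999903) and had 1679 and 2469 counts, or 35.8 and 53.4 TPM in replicates 1 and 2, and was 1.44-fold higher in replicate 2 (1.35 to 1.53). The order of Sgk1 against Tsc22d3 and Zbtb16 turned between the libraries, and against Fkbp5 and Plin4 it did not. Sgk1 TPM over Tsc22d3 TPM was 0.677 in replicate 1 but 1.27 in replicate 2, and over Zbtb16 TPM it was 0.625 and 1.23. Over Fkbp5 TPM it was 1.08 and 2.17, and over Plin4 TPM 5.25 and 20.8. Fkbp5 over Tsc22d3 was 0.625 and 0.583, and Tsc22d3 over Zbtb16 was 0.923 and 0.975. Of its family, Sgk3 was at 3.19 ± 0.0424 TPM and Sgk2 at 0.365 ± 0.0636 TPM.

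Taken as sums, the Sgk1 gap lay in transcripts that begin at or after the start of Sgk1-202, but not every transcript followed that split. These 6 transcripts had 1140 and 1914 counts together, 1.64-fold higher in replicate 2. The 7 transcripts that begin before it had 539 and 555 counts, a ratio of 1.01. In the kallisto layout the later starts had 882 and 1696 counts, 1.89-fold higher in replicate 2, and the earlier ones 958 and 917. Sgk1-204, whose start lies farthest upstream, had 508 and 483 counts, and 722 and 643 in the kallisto layout, so it was 1.08-fold and 1.14-fold higher in replicate 1. It held most of the counts of the earlier starts. Among the others, in the RSEM layout, Sgk1-203 had 0.05 and 61.7 counts and Sgk1-213 had 24.1 and 0. Sgk1-208, with a later start, had 45.4 and 39.9, so the values do not place a boundary at the start of Sgk1-202. Which later form carried the gap depended on the quantification. In the RSEM layout Sgk1-201 had 881 and 1504 counts, and Sgk1-202 had 126 and 183. In the kallisto layout Sgk1-202 had 741 and 1377 counts. The grouping by start was chosen after the values were seen, and the counts are the authors' estimates of how shared reads divide.

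Shares of single Sgk1 transcripts depended on the quantification. In the RSEM layout Sgk1-201 led with 40.9% and 43.8% of the gene's TPM, and Sgk1-202 took 5.55% and 5.08%. In the kallisto layout Sgk1-201 was at 0.0162% and 2.12% and Sgk1-202 led with 29.3% and 34.8%. Together the forms took 46.4% and 48.9%, or 29.3% and 36.9% in the kallisto layout. Within the gene, Sgk1-201 has 22 of its 2426 words of 31 bases to itself, or 0.907%, and Sgk1-202 has 291 of 2546. Sgk1-204 has 371 of 3066, and its share was 18.5% and 11.1% in the RSEM layout and 23.2% and 13.2% in the kallisto layout.

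Transcripts with a retained intron took 29.4% and 32.3% of Sgk1 TPM, and 26.5% and 22.5% in the kallisto layout. Sgk1-209 was the largest of them in the RSEM layout, at 13.8% and 19.9%, on 31 and 72 counts for a transcript of 347 bases. In the kallisto layout it was at 7.30% and 7.54%, on 7 and 11 counts, below Sgk1-208. Protein-coding forms took 69.9% and 67.0%, and 72.5% and 76.8% in the kallisto layout. Sgk1-206, a partial coding form, took 3.23% and 4.72%, and 10.9% and 15.2%. Sgk1-208, with a retained intron, took 9.12% and 5.04%, and 13.4% and 7.89%.

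**Figure D4:**
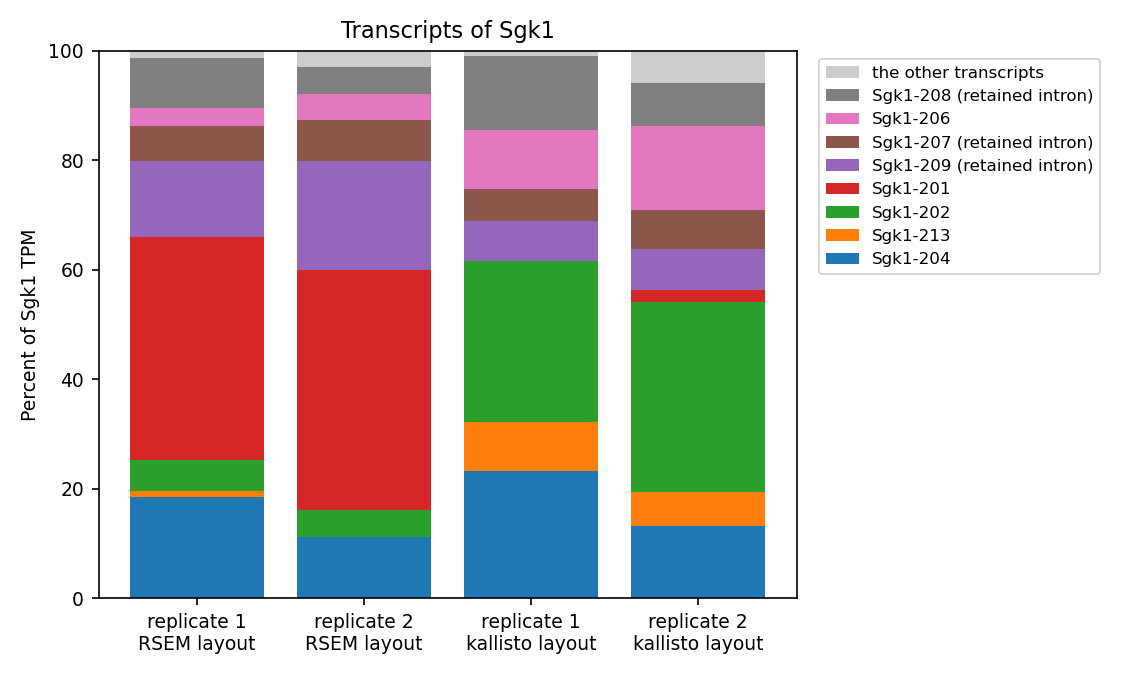
Share of Sgk1 TPM (percent) taken by each transcript in replicates 1 and 2, in the RSEM and kallisto layouts, as stacked bars. Sgk1-201 is the largest block in the RSEM layout, at 40.9% and 43.8%, and Sgk1-202 in the kallisto layout, at 29.3% and 34.8%, while Sgk1-204 is smaller in replicate 2 in both.

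Pdk4 and Errfi1 were both somewhat higher in replicate 2 by scaled counts, and neither was apart. Pdk4 encodes a kinase that switches off pyruvate dehydrogenase, and was at 8.97 and 8.60 TPM in replicates 1 and 2, with 549 and 621 counts. It was 1.10-fold higher in replicate 2 (0.983 to 1.24). It lies on the minus strand of chromosome 6 (5483351 to 5496309). Of its family, Pdk2 led at 56.9 ± 0.827 TPM, followed by Pdk1 at 17.6 ± 0.948 TPM and Pdk3 at 16.6 ± 0.884 TPM. No member of the family was apart. Pdk4-201, of 412 residues, took 67.4% and 76.0% of the gene's TPM. Pdk4-202, with a retained intron, took 24.4% and 24.0%, but 0 and 20.2% in the kallisto layout, where Pdk4-203 took 33.6% and 7.25%.

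Errfi1 encodes an inhibitor of the epidermal growth factor receptor, also known as MIG6. It was at 18.5 and 19.1 TPM in replicates 1 and 2, with 1249 and 1443 counts, from the plus strand of chromosome 4 (150853919 to 150868892). It was 1.13-fold higher in replicate 2 (1.05 to 1.22). Errfi1-201, of 461 residues, took 88.3% and 92.9% of TPM, and 68.0% and 92.2% in the kallisto layout. For Nr3c1 and Pdk4, which were higher in replicate 2 by scaled counts, TPM as deposited was higher in replicate 1.

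A further list of 32 genes known to respond to glucocorticoids, mostly from other tissues, also went both ways. Of the 31 tested, 11 were apart, beside 10.4% of all genes, 5 of them higher in replicate 2 (5.62% of genes) and 6 higher in replicate 1 (4.75%). The median log2 ratio of the 31 was -0.03. Higher in replicate 2 were Txnip, an inhibitor of thioredoxin, with 709 and 1219 counts, 1.68-fold (1.53 to 1.84), and Nfkbia, the inhibitor of NF-kappa-B, with 466 and 774 counts, 1.62-fold (1.44 to 1.82). Ddit4, an inhibitor of mTOR complex 1, had 1189 and 1557 counts. Fzd4, a Wnt receptor, had 415 and 531, and Angptl4, a lipoprotein lipase inhibitor, 51 and 75. The interval of Angptl4 was 0.993 to 2.09, so its direction lay within counting error.

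Higher in replicate 1 was Hif3a, a hypoxia-inducible factor subunit, with 377 and 158 counts, 2.44-fold (2.02 to 2.96). Among the listed targets it was the gene nearest to Plin4 in its gap. Cdkn1a, the cell cycle inhibitor p21, had 386 and 299 counts. Mfsd2a, a lipid transporter of brain endothelium, had 869 and 679, and Cebpb, a transcription factor, 606 and 499. Map3k6, a kinase, had 137 and 92 counts, and Sult1a1, a sulfotransferase, 140 and 113. The interval of Sult1a1 was 0.983 to 1.64, so its direction also lay within counting error.

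The most abundant genes of that list were close between the libraries. Glul, glutamine synthetase, was at 789 ± 50.4 TPM, Ndrg2 at 411 ± 5.81 TPM, and the metallothioneins Mt1 and Mt2 at 292 ± 17.9 and 242 ± 1.16 TPM. None of these 4 was apart. The lowest was Lcn2, lipocalin 2, with 2 and 9 counts.

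Receptor chaperones were abundant. Hspa8, the constitutive HSP70, was at 950 ± 104 TPM (SD, n = 2), Hsp90ab1 at 699 ± 38.9 TPM, Hsp90aa1 at 420 ± 21.1 TPM and Dnaja1 at 124 ± 15.0 TPM. Of 12 tested chaperones 2 were higher in replicate 2 by any amount, beside 50.1% of genes, and 10 in replicate 1. The share apart, 1 of 12, was near the 10.4% of all genes. The gene was Dnajb1, an HSP40, with 1599 and 1253 counts, 1.31-fold higher in replicate 1 (1.21 to 1.41). Dnajb1 was also the lowest of the list, at 18.8 ± 4.09 TPM. The median log2 ratio of the chaperones was -0.06. Of 12 receptor coregulators none was apart. The corepressor Ncor1 was at 112 ± 1.84 TPM, the remodelling ATPase Smarca2 at 87.7 ± 3.55 TPM and the coactivator Ncoa1 at 54.2 ± 3.30 TPM, and Ncoa3 was lowest at 11.2 ± 1.33 TPM.

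Marker RNA of several cell types differed between the libraries, and these values stand beside the genes above. Cell numbers were not measured. Of 10 oligodendrocyte markers all were higher in replicate 1 and 8 were apart, beside 4.75% of all genes apart in that direction. Their summed level was 1258 and 916 TPM in replicates 1 and 2, and Mbp, a myelin protein gene, was at 621 and 443 TPM. Choroid plexus markers summed to 162 and 57.5 TPM, of which Ttr gave 150 and 49.1 TPM, so that sum is mostly Ttr. Of these 8 markers 4 could be tested, and 3 were apart, all higher in replicate 1. Kcnj13, too low to test, alone went the other way, with 33 and 46 counts. Fkbp5, Tsc22d3, Zbtb16 and Plin4 were also higher in replicate 1, as were the further targets Hif3a, Cdkn1a, Mfsd2a, Cebpb, Map3k6 and Sult1a1.

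By scaled counts, most markers of the vessels and all of those of the coverings of the brain were higher in replicate 2. So were Sgk1 and the further targets Txnip, Nfkbia, Ddit4, Fzd4 and Angptl4, but Mfsd2a, of brain endothelium, was higher in replicate 1. All 8 meningeal fibroblast markers were apart, beside 5.62% of all genes apart in that direction. Their sum was 58.1 and 96.4 TPM in replicates 1 and 2, led by Igf2 at 18.8 and 38.8 TPM and Dcn at 25.0 and 30.8 TPM. Endothelial markers summed to 82.6 and 85.8 TPM with 4 of 8 apart, mural cell markers to 28.8 and 32.0 TPM with 5 of 6 tested apart in that direction, and erythroid markers to 345 and 521 TPM with 5 of 5 apart. Rgs5, the most abundant mural marker, was at 17.5 and 15.6 TPM, higher in replicate 1. By TPM the most abundant endothelial markers also stood higher in replicate 1, Ly6c1 at 25.5 and 24.2 TPM and Cldn5 at 17.95 and 17.21 TPM. Of 8 astrocyte markers none was apart, beside 10.4% of all genes. They summed to 1620 and 1582 TPM, though by scaled counts 7 of the 8 were higher in replicate 2. None of 7 excitatory neuron markers, led by Camk2a and Hpca at 1305 ± 38.8 and 872 ± 85.1 TPM, was apart. No marker in these lists stood at 0 in both libraries. The part of these cell types in the differences of the target genes was not tested.

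Immediate early genes, which follow neuronal activity, are given as a further measure of the state of the tissue. Of 8 tested 2 were apart, beside 10.4% of all genes, too few genes to set against that share. Both were higher in replicate 1 (4.75% of genes): Npas4 with 512 and 395 counts and Ier2 with 147 and 113. By any amount 1 of the 8 was higher in replicate 2, beside 50.1% of genes, and 7 in replicate 1. Arc was at 65.9 ± 6.77 TPM and Junb at 39.5 ± 2.35 TPM. Egr1 was at 35.0 ± 2.60 TPM and Nr4a1 at 33.4 ± 2.43 TPM.

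**Figure D5:**
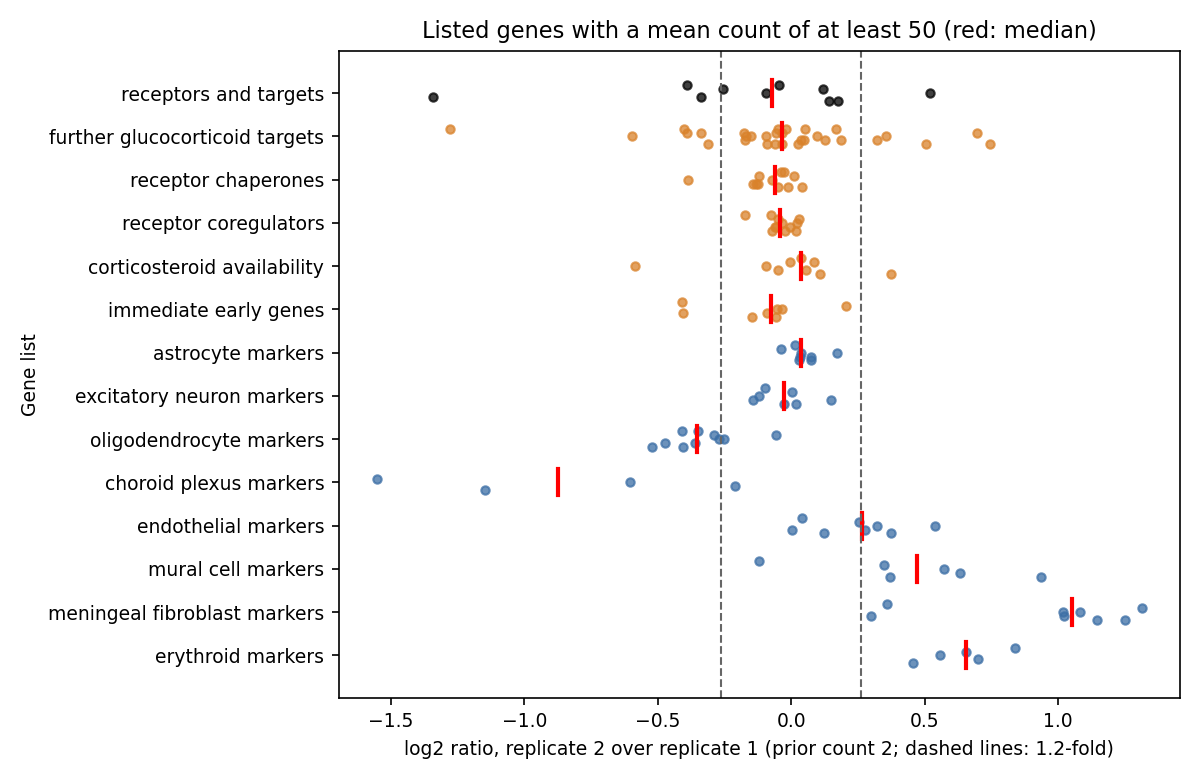
Log2 ratio of replicate 2 over replicate 1 for every tested gene of the lists (points), by list, with the median of each list in red and 1.2-fold as dashed lines. The 10 receptor and target genes spread to both sides about a median of -0.07, while oligodendrocyte markers have a median of -0.35 and meningeal fibroblast markers of 1.05.

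Gene-assigned counts summed to 35358099 and 36307276 in the libraries, so every one of the 10 genes rests on at least 397 counts in each library. Over all 10 genes 68 transcripts are annotated. The leading transcript was the same in both libraries for 10 genes in the RSEM layout and for 7 in the kallisto layout. It matched across libraries and layouts for 5 genes, namely Fkbp5, Tsc22d3, Pdk4, Errfi1 and Zbtb16.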

How the data were processed

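The authors deposited, per library, a gene and a transcript table with expected counts, posterior mean counts, TPM, FPKM, the percent of a gene's abundance taken by each transcript and a TPM credibility interval. The deposited column names are those RSEM writes, per the file headers. A second deposited transcript table holds estimated counts and TPM in the kallisto layout. Per the deposited notes, reads were assigned to GENCODE M21 genes on mm10. Which aligner, program versions and strand setting were used is not given in the sources used here.

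Expected counts were rounded and scaled by TMM factors (edgeR 4.0.16, R 4.3.3). A prior count of 2 was added in log2 ratios, which are replicate 2 over replicate 1. No prior entered the folds given for a gene, and their exact 95% intervals are conditional on the summed counts. The script was tested on simulated data. DESeq2 1.42.0 size factors, library totals and ERCC totals were alternatives. Python 3.11.15 with pandas 2.3.3, numpy 2.4.6 and scipy 1.17.1 was used. A further 26 gene lists, of which 16 hold markers, were compared.

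The 10 genes and the lists were chosen with earlier results of these data known. Named genes are the 10 genes, up to 4 of highest mean TPM and the lowest of each list, any gene apart, up to 2 of highest TPM of each marker list named, and transcripts with a mean share of at least 10% in either layout. Some genes within this rule are not reported here. Sgk1 start groups, transcripts under 10% that are named beside them, and overlapping genes were chosen after the values were seen.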

Additional observations from a re-analysis of the deposited data

How the results depend on the processing

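No paired analysis was possible because only 1 group exists. A ratio between the libraries cannot be made with 1 left out. The receptor ratio was 0.579 in TPM and 0.6965 in the kallisto layout, 0.6117 in expected counts and 0.6203 over protein-coding transcripts, and it ran from 0.5566 to 0.6022 in single libraries. The share of Sgk1-201 was 42.35% of TPM but 1.068% in the kallisto layout, 56.68% of expected counts and 61.96% over protein-coding transcripts, and the cause was not tested. Of the 10 genes 4 were higher in replicate 2 by scaled counts and 2 by TPM as deposited, where Nr3c1 and Pdk4 changed sign. Of the 10 genes 4 were apart at 1.2-fold, 1 at 1.5-fold and 1 at 2-fold, and of the further targets 11, 4 and 1. With DESeq2 size factors, library totals, ERCC totals, posterior mean counts or kallisto-layout counts 4 of the 10 genes were apart, and with TPM or FPKM as deposited 5 were, Tsc22d3 being added. Of 90 recomputed log2 ratios of the 10 genes 83 stayed inside the 95% counting interval and 7 left it, all with TPM or FPKM as deposited, and no gene that was apart changed direction. Of 18 recomputed leading transcript shares of the other genes 15 moved. Depth limits genes such as Hsd11b2, at 1 and 2 counts, for which no ratio can be given.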
